A study of Mus musculus with 2 samples.

Results

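The 8 genes described here mark the nerve sheath and the sympathetic axons that run along an artery: Sox10, S100b, Ngfr and Ncam1 of the Schwann cell, Mbp and Pmp22 of myelin, and Th and Npy of the noradrenergic axon. They were chosen by symbol and not by their measured values, although earlier results of these data were known. They are 8 of 55573 genes listed in the count table. RNA was sequenced from mesenteric arteries of C57BL/6 wild type mice aged 10 weeks, in 1 library from arteries kept in 5 mM K+ solution and 1 library from arteries depolarized in 60 mM K+ solution. The labels give 60 min in solution for both, although a shared protocol line in the labels names the 60 mM K+ solution for both libraries too. Each library was a pool of tissue from 2 mice. All solutions of the study held tetrodotoxin, a blocker of voltage-gated sodium channels, so that nerves would not fire, and connective tissue was trimmed off before freezing. According to the study's supplementary methods, control tissue was taken from part of the bed after an incubation without perfusion. The rest was then perfused with the high K+ solution, although the main text describes perfusion with either solution. Artery segment, perfusion, time after dissection and K+ therefore cannot be told apart.

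As background, resistance arteries of the mesentery are wrapped by a plexus of sympathetic axons, with fewer sensory axons, that lies at the outer border of the muscle layer. The cell bodies of these axons sit in ganglia away from the vessel, so mRNA of the neuron itself is expected in an artery only as far as it is carried into the axon, whereas the Schwann cells that ensheath the axons have their nuclei in the vessel wall. Most of these Schwann cells are of the non-myelinating (Remak) kind, and a smaller number around thicker axons form myelin. Noradrenaline and neuropeptide Y released from the axons constrict the smooth muscle.

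With 1 library per condition there was no replicate, and no test of 5 against 60 mM K+ could be made. Each log2(fold-change) below is 60 mM K+ over 5 mM K+ of read counts scaled by TMM (trimmed mean of M-values), and carries a 95% exact interval that covers counting error in these libraries only. An interval off 0 therefore says that the libraries differed by more than the sampling of reads allows, not that the conditions differed beyond the spread between mice. The libraries held 10480918 (5 mM K+) and 11289598 (60 mM K+) reads in genes. A count of 0 allowed a level of up to 3 reads, which is 0.266 and 0.286 CPM (TMM-scaled counts for each 1e6 reads). Of all listed genes, 14829 had at least 10 reads over both libraries, as did 6 of the 8 genes. Th and Npy had fewer. Among the 14829 genes, 25.0% had intervals above 0 and 20.3% had intervals below 0. Every count of intervals given below for a list is to be set beside these shares.

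The 8 genes covered a wide range of levels, which were compared in FPKM because that unit takes gene length into account. Pmp22, a membrane protein of compact myelin that many non-neural cells also make, was the most abundant, at 160.1 FPKM in 5 mM K+ and 192.1 FPKM in 60 mM K+, above 96.8% and 97.1% of the genes detected in each library. Mbp followed at 36.2 and 26.6 FPKM. In 5 mM K+ the next were Sox10 at 13.6 FPKM (95% Poisson interval 12.02 to 15.4), Ncam1 at 12.7 FPKM (11.5 to 13.9) and S100b at 12.3 FPKM (10.7 to 14.2), and these neighbours could not be ordered, since their intervals overlapped. In 60 mM K+, Ncam1 at 12.1 FPKM (10.97 to 13.3) and Sox10 at 11.2 FPKM (9.80 to 12.7) again overlapped, while S100b at 7.34 FPKM (6.10 to 8.76) lay below both. Ngfr was far lower, at 1.30 FPKM (0.956 to 1.73) and 1.05 FPKM (0.756 to 1.43), and in 60 mM K+ its interval overlapped that of Npy at 0.626 FPKM (0.171 to 1.60). Sox10, Ncam1 and S100b were thus present at a middle level, above 58.2% to 67.3% of the genes detected in each library. Ngfr stood lower, above 37.3% in 5 mM K+ and 35.1% in 60 mM K+. Transcripts of the noradrenergic axon were at or near 0.

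**Figure D1:**
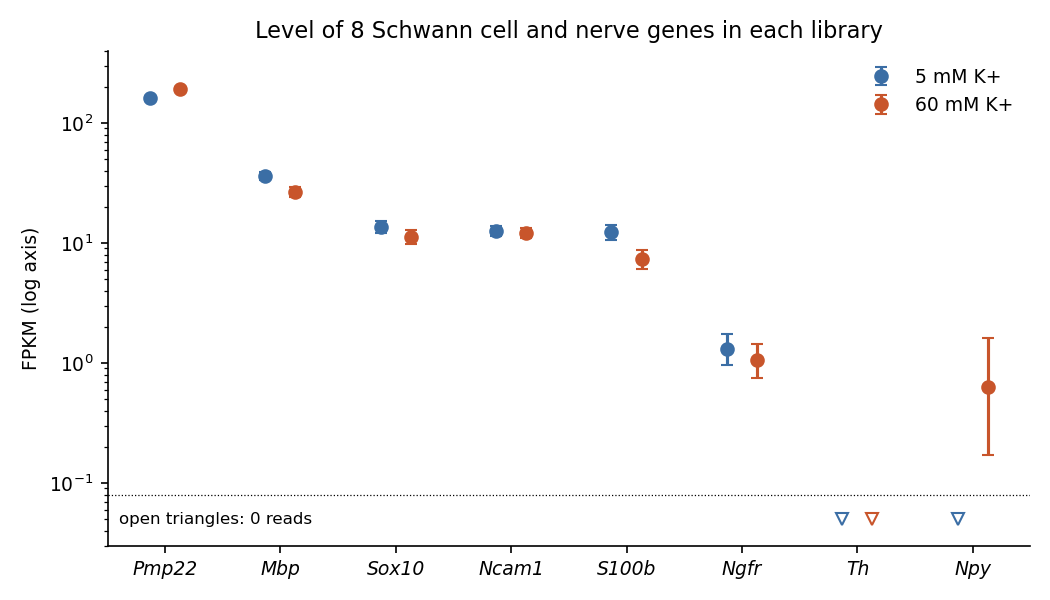
Level of the 8 genes in the 5 mM K+ library (blue) and the 60 mM K+ library (orange), in FPKM on a log axis. Points are single libraries, bars are 95% Poisson intervals of the counts and open triangles mark 0 reads. Pmp22 stood highest at 160.1 and 192.1 FPKM, and Th had 0 reads in both libraries.

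Sox10, the transcription factor that sets Schwann cell identity throughout the lineage, was nearly level between the libraries. Its gene lies on chromosome 15 of mm9 from 78985343 to 78994920 on the minus strand. It had 262 reads (5 mM K+) and 232 reads (60 mM K+), a log2(fold-change) of -0.07 (-0.34 to 0.19). Scaled by total counts in place of TMM the same reads gave -0.28 (-0.54 to -0.02), so whether its interval held 0 depended on the scaling. Ngfr, the low-affinity neurotrophin receptor p75 of non-myelinating and immature Schwann cells, had 47 and 41 reads, with a log2(fold-change) of -0.10 (-0.74 to 0.54). That interval is wide, since the gene had few reads. Ncam1, a cell adhesion molecule of Remak Schwann cells and of axons, had 414 and 426 reads, with a log2(fold-change) of 0.14 (-0.06 to 0.34). Its sign turned to -0.07 with total counts. Ngfr lies on chromosome 11 from 95430132 to 95449049 and Ncam1 on chromosome 9 from 49310257 to 49607027, both on the minus strand, and Ncam1 overlaps the predicted gene Gm11149 on the other strand, which had 11 and 17 reads. None of these 3 genes differed between the libraries beyond counting error with TMM scaling.

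S100b, a calcium-binding protein of Schwann cells and other glia that adipocytes also make, had the largest difference in size among the 6 genes with at least 10 reads. It had 192 reads in the control and 123 reads after 60 mM K+, a difference of -31.3% in CPM and a log2(fold-change) of -0.54 (-0.88 to -0.21). On mouse build mm9 the gene lies on chromosome 10 from 75716598 to 75723904 on the plus strand, where it overlaps Dip2a on the other strand. Dip2a had 433 and 236 reads and was lower in 60 mM K+ as well, at -0.77 (-1.01 to -0.54). The library kit did not mark strand, so reads of the overlapping part cannot be assigned to either gene, and the value of S100b is uncertain to that extent. Most adipocyte markers were lower too. Of 10 listed, 9 had at least 10 reads, and 6 of these had intervals below 0 and 1 above. The summed level of the list was 236.6 CPM in 5 mM K+ and 163.7 CPM in 60 mM K+. Perilipin 1 (Plin1, 101 and 18 reads), adiponectin (Adipoq, 97 and 44 reads) and adipsin (Cfd, 607 and 270 reads) were lower, with log2(fold-change) values of -2.39, -1.04 and -1.07, and leptin (Lep, 1 and 9 reads) was higher. Fabp4, which had the most reads of the list (1060 and 951), was nearly level at -0.06 (-0.18 to 0.07). Pparg (14 and 13 reads) stood at -0.01 with an interval that held 0. The part of adipocytes in the S100b difference was not tested. In tissue RNA of this kind, fewer cells of a type and less RNA per cell cannot be told apart for any gene described here.

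The myelin genes Mbp and Pmp22 differed in opposite directions. Mbp, which holds the cytoplasmic faces of the myelin membrane together, had 584 reads in the control and 462 reads after 60 mM K+. The difference was -15.1% in CPM, a log2(fold-change) of -0.24 (-0.42 to -0.06). Mbp lies on chromosome 18 from 82644538 to 82755029 on the plus strand. The same locus also makes Golli transcripts outside myelin, and a count per gene does not separate them. Pmp22, on chromosome 11 from 62942484 to 62973049 on the plus strand, had 1834 and 2370 reads and was 38.6% higher in 60 mM K+, at 0.47 (0.38 to 0.56). With total counts Mbp stood at -0.45 and Pmp22 at 0.26, in the same directions. Most endothelial markers were higher, as Pmp22 was. Of 10 listed and measured, 8 had intervals above 0 and 1 below, and their summed level was 3421 CPM in 5 mM K+ and 4652 CPM in 60 mM K+. Pecam1 alone made up 1730 and 2449 CPM of these sums. The interval below 0 was that of Kdr (168 and 73 reads), at -1.10 (-1.52 to -0.70). Smooth muscle markers had 7 of 10 intervals above 0 and 3 below, and fibroblast markers 2 above and 7 below. The part of these cells in the Pmp22 difference was not tested.

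Across the 6 genes, 1 interval lay above 0 (Pmp22), against 25.0% of all genes with at least 10 reads, and 2 lay below 0 (Mbp and S100b), against 20.3%. No gene of the 6 passed an absolute log2(fold-change) of 1. Of all genes, 5.54% were above 1 and 5.86% below -1. The median of the 6 was -0.08, beside a median of -0.0047 over all genes. With total counts every log2(fold-change) shifted by -0.21, and the 6 genes then had 1 interval above 0 and 3 below. Over all genes, the split of intervals off 0 went from 3703 above and 3016 below with TMM to 2014 above and 5693 below with total counts. These counts rest on 6 genes and are read as nothing particular to them.

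**Figure D2:**
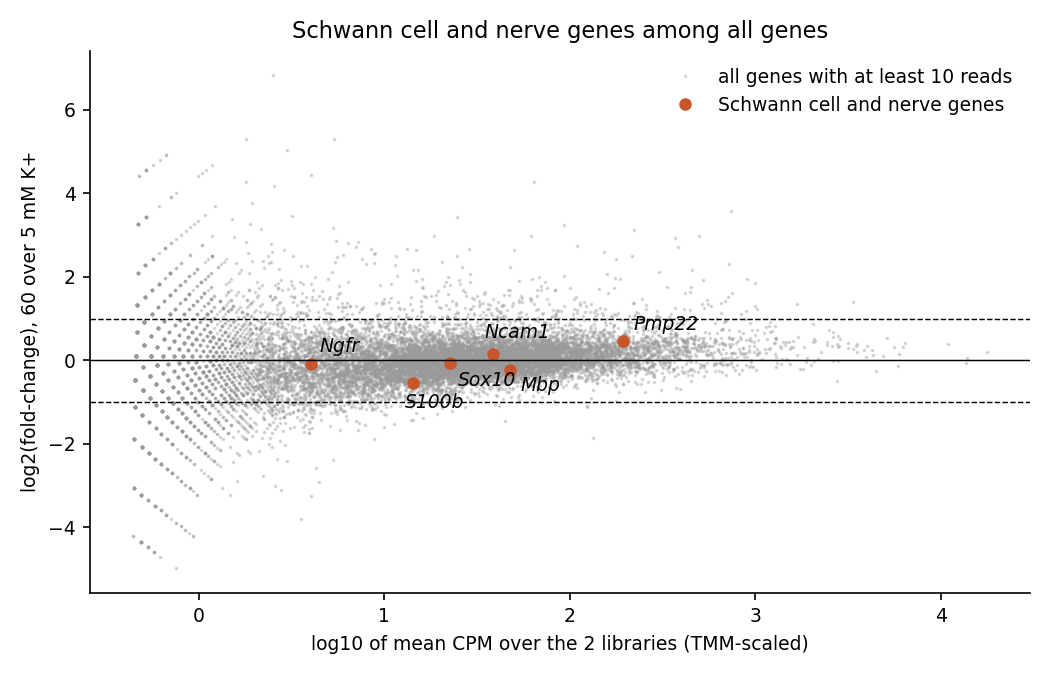
Log2(fold-change) of 60 mM K+ over 5 mM K+ (y axis) against the log10 of the mean CPM of both libraries (x axis) for 14829 genes with at least 10 reads (grey) and the 6 Schwann cell genes among them (orange). Dashed lines mark log2(fold-change) values of 1 and -1, and all 6 genes lie between them, from -0.54 (S100b) to 0.47 (Pmp22).

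Ratios within a library need no scaling, and Sox10 was used as the reference because its protein marks the whole lineage; this comparison was added after the values had been seen. Pmp22 went from 7 to 10.2 reads per Sox10 read, a log2 ratio between libraries of 0.55 (0.27 to 0.82). S100b went from 0.733 to 0.530 reads per Sox10 read, at -0.47 (-0.90 to -0.04). Erbb3, the neuregulin receptor through which axons sustain Schwann cells, went from 0.603 to 0.328 reads per Sox10 read, at -0.88 (-1.37 to -0.39). The ratios of Mbp at -0.16 (-0.48 to 0.16), Ncam1 at 0.22 (-0.11 to 0.55) and Ngfr at -0.02 (-0.72 to 0.67) had intervals that held 0. Scn7a, a sodium channel, went from 5.36 to 4.375 reads per Sox10 read, at -0.29 (-0.58 to -0.006), so its interval ended just below 0. Relative to Sox10, Pmp22 was thus higher and S100b, Erbb3 and, narrowly, Scn7a lower in the 60 mM K+ library. These are ratios of reads from the whole artery, and since other cells also make Pmp22 and S100b they are not proportions within Schwann cells.

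Th and Npy, the genes of the noradrenergic axon, were almost undetected. Th, tyrosine hydroxylase, carries out the first committed step of noradrenaline synthesis, and had 0 reads in both libraries. Npy, neuropeptide Y, is released together with noradrenaline and had 0 reads in the control and 4 after 60 mM K+. With the 0 set at the floor of 3 reads the libraries differ by a ratio of 1.43, and the lower end of the counting interval of the log2(fold-change), -0.50, lies below 0. A difference in Npy was not detectable at this depth. The label of nerve genes is therefore met in these libraries by the Schwann cell genes and not by Th.

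The study follows transcription driven by CREB, a factor that binds the cAMP response element (CRE, TGACGTCA), and CRE sites in promoters are a textbook feature of Th. The bases before the start of Th and Npy are shown to give the sequence of these promoters. They are 120 bases that end at the base before the transcription start, from RefSeq on build GRCm38.p6, Th from chr7:142899996-142900115 on the minus strand and Npy from chr6:49822590-49822709 on the plus strand, with a full CRE in capitals where there is one.
Th: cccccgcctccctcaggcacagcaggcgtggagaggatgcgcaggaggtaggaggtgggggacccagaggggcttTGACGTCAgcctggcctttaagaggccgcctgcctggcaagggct
Npy: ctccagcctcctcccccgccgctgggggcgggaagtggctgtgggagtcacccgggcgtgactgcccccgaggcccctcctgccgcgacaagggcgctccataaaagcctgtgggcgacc
Promoter windows from 250 bases before to 50 after the start were found for 5 of the 8 genes, S100b, Ngfr, Pmp22 (which has several starts), Th and Npy, and none was found for Mbp, Sox10 or Ncam1. On either strand, the full CRE was in the window of 1 of the 5, Th, from position -45 to -38 relative to the start, and 2.03% of 27025 genes hold it in such a window. The shorter core TGACG, which lies inside the full CRE, was in the same window of Th and in no other of the 5, and 23.0% of genes hold it. A match is a description of the sequence and not a site in use, and with 0 reads of Th in both libraries the letters cannot be set against expression.

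Other noradrenergic genes were low but present. Of 14 listed with Th and Npy, 7 had at least 10 reads, with a median log2(fold-change) of -0.62, beside -0.0047 over all genes, and 1 interval above 0 and none below. That median turned to 0.15 over the members with at least 50 reads and was -0.22 with no minimum, so its direction rests on genes with few reads. Dbh, which turns dopamine into noradrenaline, had 7 and 3 reads. Slc18a2, the vesicular monoamine transporter, had 28 and 17 reads, and Slc6a2, which takes noradrenaline back up, had 30 and 18 reads. All 3 had fewer reads in 60 mM K+, with log2(fold-change) values from -0.62 to -1.12, and all 3 intervals held 0. The list members with most reads are made by other cells as well: Hand2 (671 and 636 reads, 0.02), Maoa (278 and 288 reads, 0.15) and Cyb561 (432 and 567 reads, 0.49, interval 0.31 to 0.68).

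The wider myelin list gave counts in both directions. Of 17 genes, 12 had at least 10 reads, 5 intervals lay above 0 and 2 below, and the median log2(fold-change) was 0.12. Without Mbp and Pmp22 the count was 4 above and 1 below among 10. Over all genes with at least 10 reads, 25.0% of intervals lay above 0 and 20.3% below. Egr2, the transcription factor that switches on myelination and an immediate early gene in other cells, was higher at 492 and 751 reads, 0.71 (0.55 to 0.88). Mag, which faces the axon at the inner myelin turn, had 0 and 11 reads, at least 3.93-fold higher in 60 mM K+ with the 0 taken at the floor of 3 reads and the 11 reads as counted. With counting error in both, the interval of its log2(fold-change) began at 1.43. Mbp was thus among the 2 with intervals below 0, and the 5 above 0 were Pmp22, Egr2, Mag, Mal and Cnp, of which Cnp overlaps Dnajc7 on the other strand.

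The Schwann lineage list held the 4 identity genes and 19 others. Of all 23, 22 had at least 10 reads, with 3 intervals above 0, 6 below and a median of -0.06. Among the 18 measured that were not of the 8 genes the median was 0.01, with 3 above and 5 below. The shares over all genes were 25.0% above and 20.3% below. Erbb3 had 158 and 76 reads, a log2(fold-change) of -0.95 (-1.37 to -0.55). Scn7a, a sodium channel of non-myelinating Schwann cells, was lower at 1405 and 1015 reads, -0.37 (-0.49 to -0.25). Fabp7, a fatty acid binding protein of Schwann cell precursors, had 23 and 7 reads and was the only measured list member past 1 in either direction, at -1.61 (-3.08 to -0.35). Cdh19, a cadherin largely restricted to the lineage, was level at 462 and 420 reads, -0.04 (-0.23 to 0.16). Matn2 (2660 and 2214 reads, -0.16, interval -0.25 to -0.08) was lower, and Cryab (2415 and 3303 reads, 0.55, interval 0.48 to 0.63), a small heat shock protein abundant in muscle too, was higher. The other intervals above 0, beside the 6 below, were those of Dhh and Art3. Dhh had 187 and 262 reads, 0.59 (0.31 to 0.87). Art3 had 623 and 736 reads, 0.34 (0.19 to 0.50), and overlaps Cxcl10 on the other strand, which had 18 and 118 reads. Sox10 and Cdh19 thus had log2(fold-change) values of -0.07 and -0.04, while Erbb3, also a defining gene of the lineage, stood at -0.95.

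**Figure D3:**
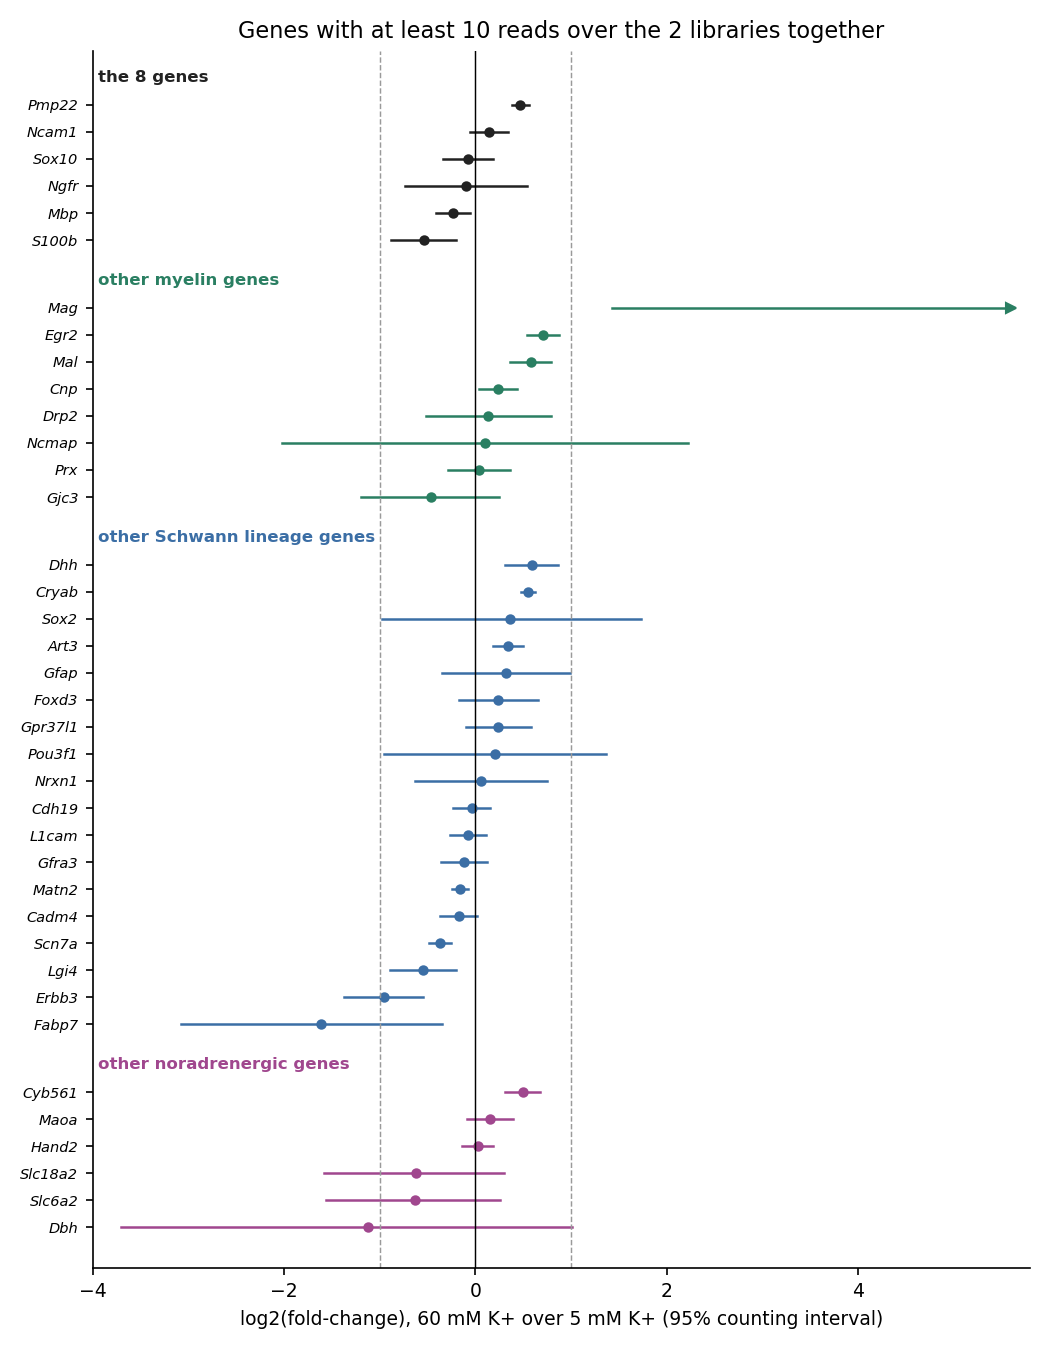
Log2(fold-change) of 60 mM K+ over 5 mM K+ with 95% counting intervals for genes of the Schwann cell, myelin and noradrenergic lists that had at least 10 reads. Dashed lines mark 1 and -1; Mag had 0 reads in 5 mM K+, so no point is drawn and the arrow marks an interval with no upper end. Sox10 and Cdh19 lie close to 0, Erbb3 at -0.95 and Fabp7 at -1.61.

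Axon and neuron genes were uneven. Of 18 listed, 9 had at least 10 reads and 5 had 0 reads in both libraries (Nefm, Snap25, Syt1, Elavl4 and Ina, which serve the axonal skeleton, vesicle release and neuronal RNA binding). Among the 9, 5 intervals lay above 0 and 1 below, with a median of 0.19. Tubb3, a neuronal tubulin, had 7 and 19 reads, a log2(fold-change) of 1.54 (0.23 to 3.04). Vgf, a secreted neuropeptide precursor that activity induces in neurons, had 0 and 14 reads, at least 5.01-fold higher in 60 mM K+ with the 0 at the floor and the 14 reads as counted, and its log2(fold-change) interval began at 1.83. Gap43, a growth cone protein of axons that injured Schwann cells also make, was the one with its interval below 0, at 48 and 25 reads, -0.84 (-1.60 to -0.11). Uchl1, a ubiquitin hydrolase used as a pan-neuronal marker, had 583 and 770 reads, 0.50 (0.35 to 0.66), Stmn2 had 552 and 585 reads, 0.19 (0.01 to 0.36), and Map1b had 3408 and 3208 reads, 0.01 (-0.06 to 0.08). Which cells of the artery made these more abundant transcripts was not tested, so their levels cannot be assigned to axons. Of 11 sensory and cholinergic genes, 10 were matched by symbol and 3 had at least 10 reads. Tac1, the precursor of substance P, was higher at 17 and 42 reads, 1.41 (0.56 to 2.31), while Calca, the precursor of CGRP, had 6 reads in each library and Trpv1, the capsaicin receptor, had 12 and 5. Chat and Scn10a had 0 reads.

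The ligands that act on these cells were described from a list of neurotrophins, GDNF family ligands and neuregulins, written with the study's own gene tables in view. Of 11 listed, 6 had at least 10 reads, with 4 intervals above 0, 1 below and a median of 0.57. Ntf3, neurotrophin 3, was lower at 418 and 300 reads, -0.38 (-0.60 to -0.16), and Nrtn, neurturin, was higher at 168 and 212 reads, 0.44 (0.14 to 0.74). Nrg1, the axonal ligand of Erbb3, had 0 reads in both libraries. Neurotrophin 3 and neurturin thus differed in opposite directions between the libraries with TMM scaling. Total counts shifted every log2(fold-change) by -0.21, and the Nrtn interval, which began at 0.14, then held 0.

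Among 12 receptors of these ligands, all had at least 10 reads, with 3 intervals above 0, 4 below and a median of -0.09. Ntrk2, the BDNF receptor, had 165 and 308 reads, 1.00 (0.72 to 1.28), and Ntrk3, the neurotrophin 3 receptor, had 2813 and 2379 reads, -0.14 (-0.22 to -0.06). Ret, the signalling receptor of the GDNF family, had 34 and 70 reads, 1.14 (0.53 to 1.78). Cntfr, the receptor of ciliary neurotrophic factor, had 109 and 299 reads, 1.56 (1.24 to 1.89). Sort1 (2925 and 2831 reads, 0.05) and Erbb2, the partner of Erbb3 (323 and 284 reads, -0.08, interval -0.32 to 0.15), held 0 in their intervals. The receptors therefore differed in both directions between the libraries.

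Receptors for noradrenaline and neuropeptide Y, which arterial smooth muscle is known to carry, were better covered than Th and Npy. Of 13 genes for NPY and noradrenaline receptors, 10 had at least 10 reads, with 2 intervals above 0, 3 below and a median of -0.02. Npy1r, the receptor through which neuropeptide Y constricts arteries, had 5459 and 3163 reads, 180.5 and 97.1 FPKM, a log2(fold-change) of -0.69 (-0.75 to -0.62). Adra1d, an alpha-1 adrenoceptor of arterial muscle, was higher at 486 and 791 reads, 0.80 (0.64 to 0.97). Adra1a, of the same family, had 271 and 225 reads, -0.17 (-0.43 to 0.09), and Adra1b had 11 and 2 reads, -2.36 (-5.57 to -0.16). Receptor transcripts with intervals off 0 thus lay on both sides, with Npy1r the most abundant of those named.

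Markers of other tissues also differed in level between the libraries. Macrophage markers had no interval above 0 and 4 below among 11 measured, with a summed level of 257.5 CPM in 5 mM K+ and 212.3 CPM in 60 mM K+. Mertk alone made up 171.8 and 148.7 CPM of these sums. The log2(fold-change) values of Cd68 (-0.04), Mrc1 (-0.09), C1qa (0.01), C1qb (0.39) and C1qc (0.10) had intervals that held 0. Red blood cell markers, of which 5 of 7 were matched, had 4 of 5 intervals below 0 and a sum of 80.6 and 51.2 CPM. Pancreas markers had 5 of 5 measured intervals above 0, with 2 of 8 listed at 0 reads in both libraries, and a sum of 11.6 and 39.7 CPM. The medians of these lists were -0.21, -0.64 and 3.27. The part of such tissue in the values of the 8 genes was not tested.

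**Figure D4:**
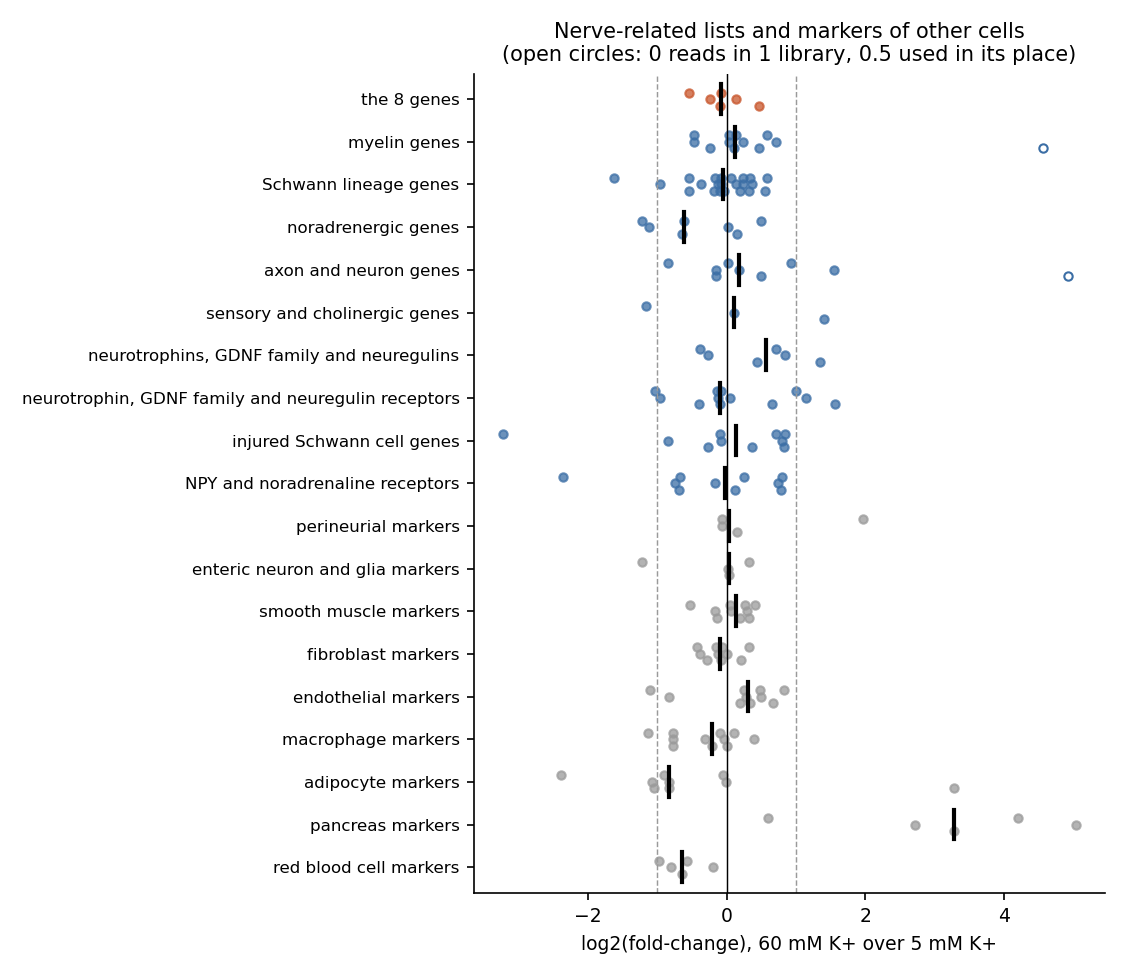
Log2(fold-change) of 60 mM K+ over 5 mM K+ for every gene with at least 10 reads in the 8 genes (orange), in nerve-related lists (blue) and in marker lists of other cells (grey), with the median of each list as a black bar. Open circles are genes with 0 reads in 1 library, where 0.5 reads stood for the 0. The 6 of the 8 genes with at least 10 reads spread from -0.54 to 0.47 around a median of -0.08, while adipocyte markers had a median of -0.82.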

How the data were processed

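RNA of mesenteric arteries was read as poly-A libraries with a kit that does not mark strand. The authors deposited raw read counts per gene and FPKM values made from the same reads and scaled by total counts, since counts over FPKM differed between the libraries by 1.08 for every gene, the ratio of total reads. The methods name mm9, and the submitters' processing notes list TopHat2 2.0.12, HTSeq 0.6.1 and edgeR 3.0.8, without roles; the annotation is not given in the sources used here. Symbols and mm9 positions were taken from GENCODE vM1, which named 32601 of 55573 genes, with 99.1% of the reads in each library.

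The 8 genes and all lists were chosen with earlier results of these data known. Counts were scaled by TMM (edgeR 4.0.16, R 4.3.3; factors 1.07 and 0.930). Fold changes used 0.5 in place of a count of 0, and intervals were exact (Clopper-Pearson, 95%, scipy 1.17.1), which cover counting error only, as PCR copies are not independent. Genes with at least 10 reads over both libraries were counted. The interval code was tested on simulated data. Named genes were the 8, the 3 members of each list with most reads, members past 1 with an interval off 0, and a set of defining genes. Of these, some marker genes of other cells are given only within their list's counts. Other genes, named for an overlap, a count of 0 or to complete a count, were picked after their values were seen. A few list members are counted but not reported here by name. Alternatives were total-count, median-of-ratios (DESeq2 1.42.0) and upper-quartile scaling, no minimum or a minimum of 50 reads, a 99% interval, FPKM with pseudocounts of 0.1 and 1, and an edgeR exact test in which a biological coefficient of variation of 0.2 was assumed.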

Additional observations from a re-analysis of the deposited data

How the results depend on the processing

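Among the 8 genes no called direction reversed under any alternative run, and the sign of Ncam1, which was not called, turned with total counts. With no minimum on reads, 1 gene passed an absolute log2(fold-change) of 1 (Npy, on 4 reads against 0), where 0 had passed. With the edgeR exact test with 0.2 assumed as the biological coefficient of variation and p under 0.05, 0 of the 8 genes were called, 0 above and 0 below, in place of 3 off 0, 1 above and 2 below by the counting intervals, so those calls rest on counting error alone. Total-count scaling left Pmp22 at 0.26 and took Mbp to -0.45 and S100b to -0.75. With at least 50 reads, the median of the noradrenergic list went from -0.62 to 0.15 and that of the sensory and cholinergic list from 0.10 to 1.41, because few genes remained. List medians were the same with Mag and Vgf at the floor of 3 reads. No paired analysis was possible because there was 1 library at each K+ level. Th, with 0 reads in both libraries, and Npy, with 0 and 4, could not be compared at this depth. Whether depth or absence of the transcript accounts for their low counts was not tested. Few reads leave the intervals of Ngfr and of most noradrenergic genes wide.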

Other observations

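Genes that injured Schwann cells are known to switch on were measured too, and the most abundant of them are made by many cells under stress. Of 12 listed, 10 had at least 10 reads, with 4 intervals above 0, 2 below and a median log2(fold-change) of 0.14. Jun, the transcription factor of the repair state and an immediate early gene, had 9660 and 15988 reads, a log2(fold-change) of 0.83 (0.79 to 0.86), and Atf3, a stress-induced factor, had 9400 and 15173 reads, 0.79 (0.75 to 0.83). Artn, artemin, had 212 and 165 reads, -0.26 (-0.56 to 0.04), and Runx2 had 10 and 1, -3.22 (-8.66 to -0.41). Gap43 had 48 and 25 reads, -0.84 (-1.60 to -0.11), while Sox2 and Ngfr, also of this list, had intervals that held 0. Both Jun and Atf3 were already among the abundant genes of the 5 mM K+ library, at 289 and 611 FPKM.

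Among perineurial markers, 5 of 6 were matched and 4 measured, with 2 intervals above 0, none below and a median of 0.04. Slc2a1, the glucose transporter of perineurium and of many other cells, had 289 and 1047 reads, 1.96 (1.77 to 2.15). Itgb4, an integrin of perineurial and endothelial cells, had 1025 and 1062 reads, 0.15 (0.03 to 0.28), and Moxd1 had 36 and 32 reads. Of 8 markers of enteric neurons and glia, 4 had at least 10 reads and no interval was off 0, among them Gfap at 37 and 43 reads. Elavl4 and Chat had 0 reads in both libraries.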
